A study of Mus musculus with 8 samples.

Results

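Imprinted genes are transcribed mainly from the allele of one parent. Most lie in clusters in which a methylated control region, a long non-coding RNA or both set which allele is used, and many encode growth regulators that are active before birth and fall silent in adult tissues. The H19 and Igf2 pair is the textbook case: H19, a long non-coding RNA, comes from the maternal allele and Igf2, a growth factor, from the paternal allele, and they share enhancers across an insulator. The levels of 46 named mouse imprinted genes were read from the deposited count table, which lists 53801 genes, by matching each gene identifier to its symbol, and all 46 were found.

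The RNA came from viable EpCAM+ Cd24+ Paneth cells sorted from small intestine, the crypt cells that secrete antimicrobial peptides. There were 4 control and 4 knockout libraries. The knockouts lack Mll1 (Kmt2a, a histone H3 lysine 4 methyltransferase) and are labelled Mll1-/-, and the controls are labelled Mll1+/-, so that the controls carry a deleted allele too. The study's results give both groups the β-cat GOF allele, a stabilised β-catenin without exon 3, whereas its methods paragraph on the sort names Mll1 flox littermates without that allele. Recombination was driven by Lgr5-EGFP-IRES-CreERT2, which acts in Lgr5+ stem cells and leaves a mosaic of recombined and wild-type crypts. Mice of both sexes, a few weeks old, received 1 mg tamoxifen on 3 days, and cells were taken 10 d after induction. The comparison asked which imprinted loci were transcribed in these cells and whether their RNA differed between the genotypes. Nothing in the table separates the parental alleles, so a value is the sum over both. In these bulk samples a change in the number of cells of a type and a change in RNA per cell cannot be told apart.

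Total counts lay between 13037832 and 14380240 per library, and values are given as counts or as normalized CPM (counts scaled to library size and TMM factor). The libraries carry 2 runs of label numbers, called set A (controls 1 and 2, knockouts 1 and 2) and set B (controls 3 and 4, knockouts 3 and 4). Knockout 3 stood apart: 19662 genes had a count there against 22623 to 26074 in the other libraries, its TMM factor was 0.632 against 0.822 to 1.34, and it held counts both of Xist (1037) and of 4 Y-linked genes (148). Xist held 1055 to 2697 counts in controls 1, 2 and 4 and in knockout 4, with at most 22 Y-linked counts, whereas control 3 and knockouts 1 and 2 held 881 to 1375 Y-linked counts and at most 6 of Xist. Within set A the genotype and these sex-linked counts cannot be told apart, since both controls there held Xist and both knockouts Y-linked counts. For each imprinted or Igf axis gene called or at an unadjusted p under 0.05 in the main edgeR test, the value without knockout 3 is given too. Kmt2a, counted over the whole gene, lay between 22.4 and 45.1 CPM in the controls and between 25.7 and 38.5 CPM in the knockouts, and such a count does not show whether the floxed exons were removed. From immunohistochemistry of β-cat GOF knockout crypts, the study reports that Paneth cells too lacked Mll1 protein when cells were sorted. Of 10 Paneth markers all were detected, with a summed level of 269063 to 535999 CPM in the controls and 245477 to 760621 CPM in the knockouts. The sums of 4 other marker lists overlapped between the genotypes: 1784 to 4288 against 1664 to 4046 CPM for 7 goblet markers, 142 to 325 against 89.0 to 235 CPM for 7 enterocyte markers, 158 to 477 against 177 to 631 CPM for 10 immune markers and 3.63 to 7.21 against 4.36 to 6.70 CPM for 6 endothelial markers. None of the markers in these lists was called by edgeR (DESeq2 and limma-voom each called 1 enterocyte marker), and at an unadjusted p under 0.05 were 2 of 7 goblet and 2 of 5 tested enterocyte markers, all lower, against 2.53% of all genes tested that were lower at that limit. The log2 fold changes of the goblet markers, knockout minus control in edgeR, ran from −5.05 to 0.76, so that their sum does not stand for each marker. Most of the immune sum in each library was Lyz2, at 129 to 466 CPM in the controls and 166 to 624 CPM in the knockouts. Lyz2 was lowest in control 1 and highest in knockout 3, as was the Paneth marker Lyz1 (16100 and 72416 CPM). Of the 10 immune markers 6 had at most 3 counts in every library. Which cells the Lyz2 RNA came from was not tested, so that this sum is no measure of immune cells.

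The sequence shown is the microRNA carried by the H19 transcript, since H19 was the imprinted gene that changed. Mir675 lies at chr7:142577064-142577147 on the minus strand (GRCm38.p6, RefSeq), and its 84 bases are all inside H19 exons. In the hairpin the capitals mark both mature arms, and in the mature sequences they mark the seed, bases 2 to 8.
Mir675 hairpin: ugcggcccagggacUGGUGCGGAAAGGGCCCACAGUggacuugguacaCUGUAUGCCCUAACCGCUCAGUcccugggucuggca
miR-675-5p: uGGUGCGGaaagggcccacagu
miR-675-3p: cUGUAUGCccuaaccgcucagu
The arms have different seeds, and neither was measured. The libraries were primed on poly(A), and the Mir675 row held 0 counts in every library. How reads on bases shared with H19 were assigned is not given in the sources used here, so that this 0 is no measure of the microRNA.

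A gene was called expressed when it passed the count filter of the test, silent when no library held more than 3 counts, and low otherwise. By these limits 26 imprinted genes were expressed, 12 were low and 8 were silent. H19 is among the 26 through its knockout counts only, since no control held more than 1 count of it. Silent were Igf2, Rtl1, Dio3, Mirg, Zim1, Ndn, Peg10 and Zdbf2, and each of them had at least 1 count in some library. Low were Phlda2, Nap1l5, Plagl1, Sfmbt2, Dlk1, Mest, Meg3, Tspan32, Usp29, Rasgrf1, Rian and Magel2, with a highest count of 37, which was Plagl1 in knockout 4. A library's 0 allows up to 3 counts, or 0.172 to 0.352 CPM depending on the library, and covers counting error only.

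None of the 6 genes of the Dlk1-Dio3 cluster was expressed: the long RNAs Meg3 and Rian and the Notch-related Dlk1 were low, and Mirg, Rtl1 and Dio3, which encodes a thyroid hormone deiodinase, were silent. Meg3 held 11, 2, 19 and 10 counts in controls 1 to 4 and 10, 7, 2 and 0 in knockouts 1 to 4, so that its genotypes overlapped. In the Kcnq1 cluster on chromosome 7, 6 of 8 members were expressed, and Phlda2 and Tspan32 were low. Of the Peg10-Sgce cluster, Sgce, Ppp1r9a and Asb4 were expressed while Peg10 was silent. Of the Peg3 cluster, Peg3 was expressed, Usp29 low and Zim1 silent, and of the Snrpn-Ube3a cluster Ube3a and Snrpn were expressed, Magel2 low and Ndn silent.

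By the parental allele from which they are usually transcribed, 9 of 20 paternally expressed genes, 6 of 11 maternally expressed genes and 11 of 15 genes imprinted only in some tissues or isoforms were expressed. The non-coding members were expressed in 4 of 7 cases (H19, Kcnq1ot1, Airn and Peg13) and the protein-coding ones in 22 of 39. H19, counted here as maternal and non-coding, was expressed in the knockouts only.

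**Figure D1:**
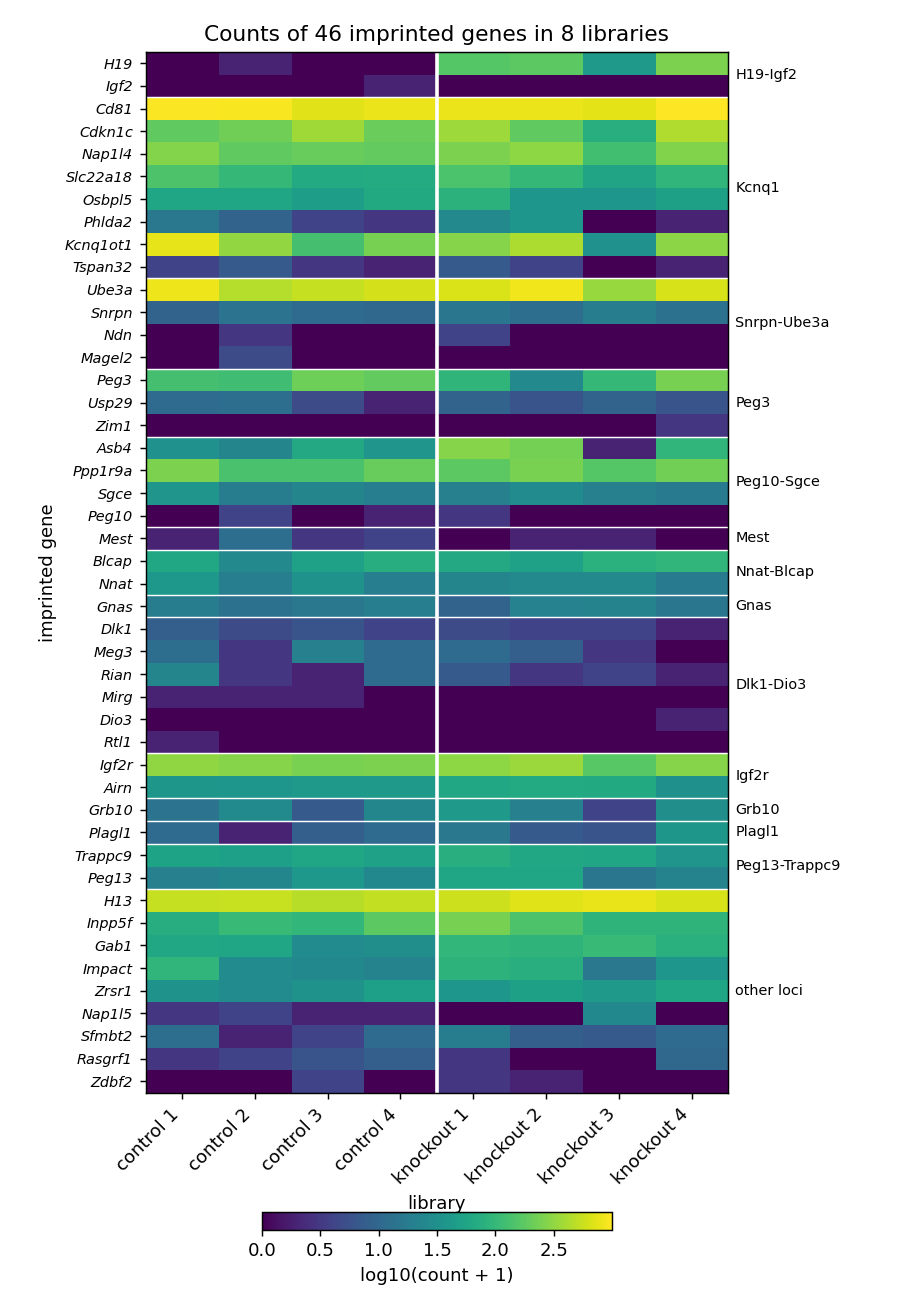
Heat map of log10(count + 1) for the 46 imprinted genes (rows, grouped by cluster) in the 8 libraries (columns, controls left and knockouts right). H19 has at most 1 count in the 4 controls and 40 to 254 counts in the 4 knockouts, and the Dlk1-Dio3 rows hold at most 22 counts in a library.

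Per kilobase of exon, the scale on which genes can be compared, the highest mean levels over all 8 libraries belonged to Cd81 (21.9 CPM per kb), Cdkn1c (8.90), H13 (5.18), Nap1l4 (5.15), Slc22a18 (3.97), Ube3a (2.15), Igf2r (2.11) and H19 (2.02). Some neighbours in this order were close: H13 and Nap1l4, and Ube3a, Igf2r and H19, were near in level, and their order was not tested. By group, H19 was 40th of the 46 in the controls and 5th in the knockouts. With 1 control count in all, its exact place in the controls carries no meaning.

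Cd81, a tetraspanin at the edge of the Kcnq1 cluster, stood at 58.9, 73.5, 65.9 and 64.0 CPM in controls 1 to 4 and at 47.7, 45.9, 88.2 and 59.9 CPM in knockouts 1 to 4. The knockouts spanned the controls on both sides, with knockout 3 highest. Cdkn1c, the cyclin-dependent kinase inhibitor p57, stood at 11.5, 17.6, 33.1 and 15.9 CPM in the controls and at 21.3, 10.6, 8.69 and 26.5 CPM in the knockouts. Its groups overlapped widely. Another gene covers 30.7% of the Cdkn1c exon bases on the other strand, and that partner had no count in any library.

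H13, a signal peptide peptidase, had 34.0, 43.4, 42.0 and 41.5 CPM in the controls and 34.3, 41.0, 92.4 and 39.2 CPM in the knockouts. All libraries but knockout 3 fell within one narrow range. Nap1l4, a nucleosome assembly protein, had 17.2, 14.7, 17.7 and 14.8 CPM in the controls and 14.8, 17.5, 14.4 and 16.3 CPM in the knockouts. Its log2 fold change, knockout minus control, was −0.03 ± 0.17 (SE), among the most tightly bounded of the imprinted genes. Slc22a18, a transporter of the same cluster, had 9.09, 7.70, 5.92 and 5.37 CPM in the controls and 8.20, 5.57, 6.46 and 5.64 CPM in the knockouts, which overlapped.

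Ube3a, a ubiquitin ligase imprinted in neurons, had 51.3, 36.5, 48.6 and 49.3 CPM in the controls and 39.6, 49.2, 40.3 and 39.2 CPM in the knockouts. The groups overlapped through control 2 and knockout 2. Other genes, on the other strand, cover 27.3% of its exon bases. Igf2r, the receptor that clears Igf2, had 19.9, 22.5, 22.1 and 20.1 CPM in the controls and 18.2, 20.3, 19.1 and 17.3 CPM in the knockouts, and knockout 2 lay inside the control range. The Igf2r log2 fold change was −0.17 ± 0.16 (SE). Airn, the antisense RNA of the Igf2r locus, ran from 2.38 to 3.59 CPM in the controls and from 1.88 to 7.64 CPM in the knockouts.

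Between the genotypes H19 was the one imprinted gene of 26 tested that passed the test, edgeR's quasi-likelihood test at a false discovery rate of 10%. That is 3.85% of those tested, where 0.283% of all 13439 genes tested were called (0.231% higher in the knockouts and 0.0521% lower). H19 passed the count filter through its knockout counts only, and the list was chosen with earlier results of these data known. The share is therefore no result about the list. H19 also passed a stricter rule (false discovery rate 0.05, change past 0.5 on the log2 scale either way), as did 0.186% of all genes tested. At an unadjusted p under 0.05 the count was 2, H19 and Gab1, both higher in the knockouts, against 6.88% of all genes tested (4.35% higher). The genotypes did not overlap for the same pair of genes, against 4.52% of all genes tested (2.59% with the knockouts higher).

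H19 (ENSMUSG00000000031, chr7:142575529-142578143, minus strand, mm10) had 0, 1, 0 and 0 counts in controls 1 to 4. In knockouts 1 to 4 it had 160, 175, 40 and 254 counts, or 9.50, 10.0, 4.70 and 15.4 CPM. Every knockout stood above every control, and knockout 3 was the lowest of the knockouts. The knockout mean was 9.91 ± 4.38 CPM (SD, n = 4), and the controls were at or under the floor of 3 counts per library, so that H19 was at least 42.5-fold higher (edgeR, adjusted p = 0.000189). The lowest knockout was at least 17.5-fold above the highest control floor. An exact permutation test of the means, two-sided over all assignments of 4 of the 8 libraries, gave p = 0.0286, the smallest it allows.

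The H19 difference was present in both library sets and without knockout 3. Within set A it was at least 45.9-fold and within set B at least 39.7-fold, with 2 libraries against 2 in each. The edgeR adjusted p was 0.000506 in set A and 0.303 in set B, where it missed the threshold. Without knockout 3 the bound was 50.01-fold. H19 was at 9.50 and 10.0 CPM in knockouts 1 and 2, which held Y-linked counts, and at 15.4 CPM in knockout 4, which held Xist, while control 3, with Y-linked counts, had no H19 count. The sum of 17 mesenchymal markers, collagens and smooth muscle genes among them, was 2.15 to 3.41 CPM in the controls and 1.78 to 2.49 CPM in the knockouts. No marker of that list passed the count filter, and 6 of the 17 had at most 3 counts in every library. The part of such cells in the H19 difference was not tested.

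**Figure D2:**
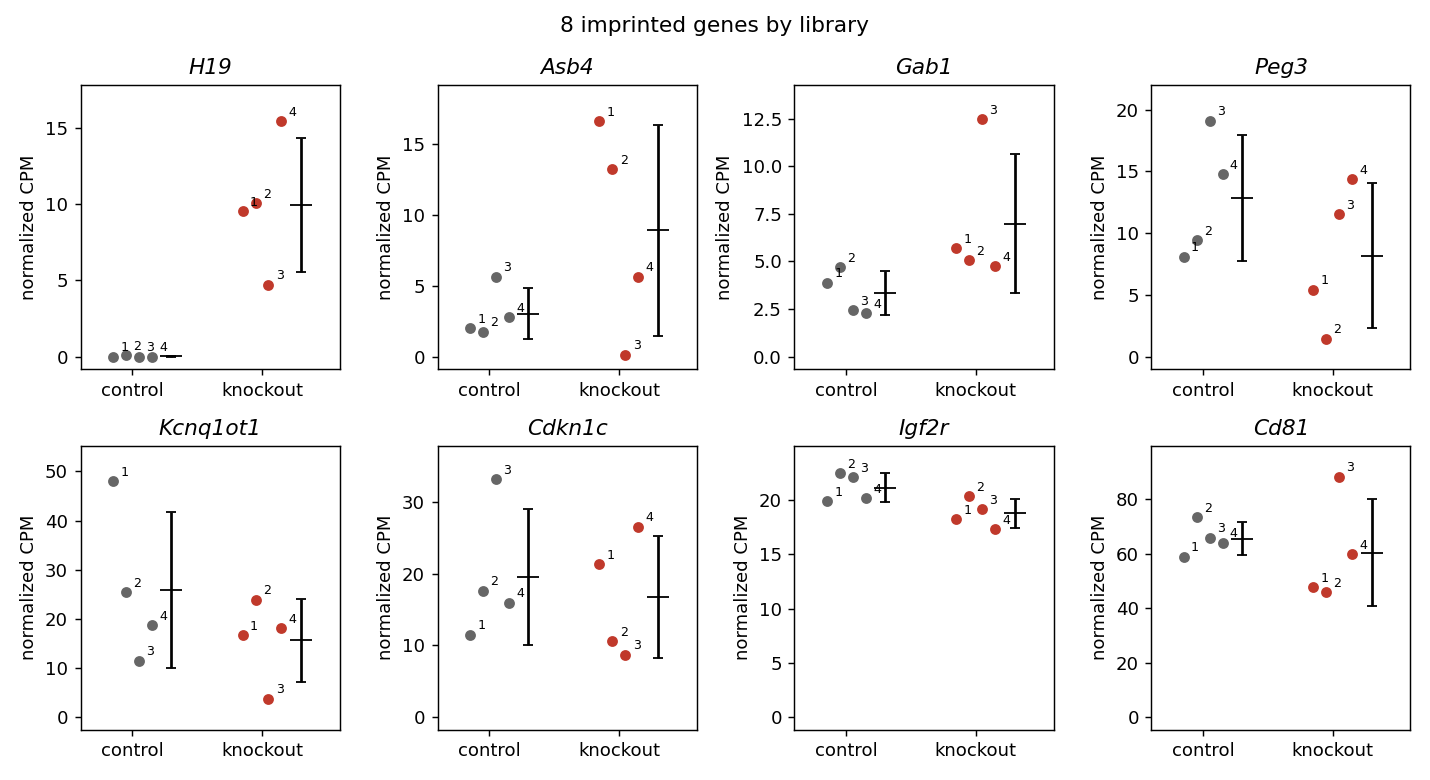
Normalized CPM of 8 imprinted genes in controls and knockouts, 1 point per library with its number, and the mean ± SD (n = 4) beside the points. The groups separate for H19 and Gab1 and overlap for the other 6, and knockout 3 is low for Asb4 (0.117 CPM) and high for Gab1 (12.5 CPM).

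Igf2, the reciprocal partner of H19, had a single count in control 4 and 0 in the other 7 libraries. The annotated readthrough gene Gm49394 covers 62.8% of Igf2 exon bases on the same strand, and between 76.2% and 97.0% of each annotated Igf2 transcript. Gm49394 itself had 0 counts in every library. How reads on bases shared by a pair of genes were assigned is not given in the sources used here. The part of this overlap in the low Igf2 count was not tested.

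Within 500 kb of H19 there were 56 other genes, of which 40 had at most 3 counts in every library and 10 were tested. None was called by edgeR at 10% (1 at an unadjusted p under 0.05, where 6.88% of all genes tested were), nor by DESeq2 or limma-voom. The median log2 fold change of the 10 was −0.23, where that of all genes tested was 0.01. Among the nearest, Mrpl23, a mitochondrial ribosomal protein gene, had 0.714 to 1.88 CPM in the controls and 0.470 to 1.03 CPM in the knockouts. Nctc1, a non-coding RNA of the enhancer region, had at most 2 counts in a library. Syt8, Tnni2, Tnnt3, Lsp1, Gm33148, Mir483 and Igf2os had at most 2 counts in every library, and Prr33 at most 9. Gm27483 and Gm27786, whose bases all overlap H19 on the other strand, had none, and the assignment of reads on such bases is not given. Ins2, an insulin gene beyond Igf2, was at 13.6 CPM in control 3 and at most 0.470 CPM elsewhere.

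The gene with the unadjusted p under 0.05 was Ascl2, a stem cell transcription factor. It had 11.5, 9.44, 4.58 and 7.34 CPM in the controls and 6.53, 5.46, 2.23 and 4.19 CPM in the knockouts, and the groups overlapped. Its log2 fold change was −0.82 ± 0.37 (SE, edgeR adjusted p = 0.702, in a range of 0.429 to 0.982 over its alternatives). It was −0.62 without knockout 3 and −0.61 without control 1, and −0.47 with limma-voom, and in these fits, as without each of control 2, control 4, knockout 2 and knockout 4, the unadjusted p was no longer under 0.05. Ascl2 is one of 6 stem cell markers, whose summed level was 703 to 1520 CPM in the controls and 273 to 952 CPM in the knockouts. None of the 6 was called by edgeR or DESeq2 and 1 was by limma-voom, and at an unadjusted p under 0.05 were 3 lower (Ascl2, Olfm4 and Slc12a2, against 2.53% of all genes tested) and 1 higher (Axin2, against 4.35%). Lgr5 had a log2 fold change of 0.04 and Smoc2 one of −0.05. Their part in the Ascl2 value was not tested.

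**Figure D3:**
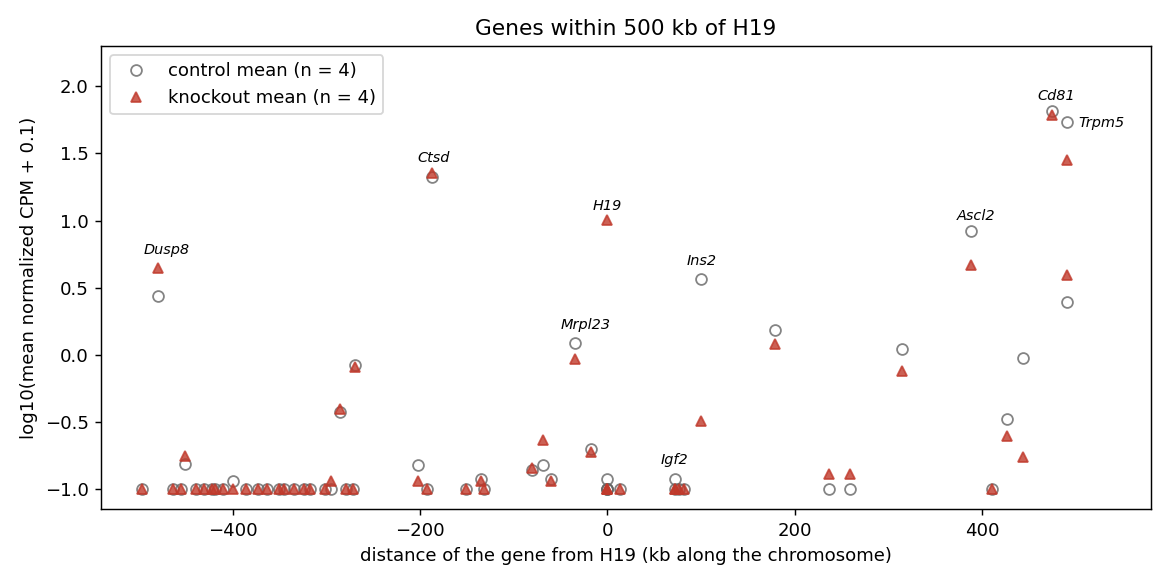
Mean level, as log10(mean normalized CPM + 0.1), of each gene within 500 kb of H19 against its distance from H19 in kb, with open circles for controls and triangles for knockouts (n = 4 each). At distance 0 the knockout mean of H19 is 9.91 CPM, while the neighbouring genes within 100 kb stay near the bottom in both groups, except Mrpl23.

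Gab1, an adaptor of receptor tyrosine kinases that is imprinted in extraembryonic tissue, had 3.89, 4.68, 2.42 and 2.29 CPM in the controls. In the knockouts it had 5.70, 5.05, 12.5 and 4.73 CPM. The groups did not overlap, by a narrow margin between control 2 and knockout 4. Its log2 fold change was 1.05 ± 0.39 (SE) and did not pass (edgeR adjusted p = 0.589). Without knockout 3, its highest library, it was 0.63 (adjusted p = 0.487, in a range of 0.249 to 0.850 over its alternatives), and it was 0.33 within set A and 1.86 within set B, neither of which passed.

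Asb4, an ankyrin repeat and SOCS box protein, had the next largest fitted change after H19. Its counts were 32, 22, 63 and 35 in the controls and 280, 231, 1 and 93 in the knockouts. In CPM these were 2.01, 1.75, 5.65 and 2.76 against 16.6, 13.3, 0.117 and 5.64. Knockouts 1 and 2 stood above every control, knockout 4 lay just under control 3, and knockout 3 was below every other library. The log2 fold change was 1.58 ± 0.79 (SE, edgeR adjusted p = 0.784). Without knockout 3 it was 1.97 and was called (adjusted p = 0.0548), in a fit that called 1.58% of all genes tested, and over the 15 alternatives set for it the edgeR, DESeq2 and limma adjusted p ranged from 0.0548 to 1.00. Within set A it was 2.98 (adjusted p = 0.00205) and within set B −0.48 (adjusted p = 0.999), so that the difference did not hold within both sets. The fit within set A, where genotype and sex-linked counts coincide, called 1.8% of all genes tested, and that within set B 0.0527%.

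Of the other expressed genes in the Asb4 cluster, Sgce (ε-sarcoglycan) had a log2 fold change of −0.26 ± 0.43 (SE) and Ppp1r9a (neurabin) one of 0.04 ± 0.23. Tfpi2, a protease inhibitor gene next to this cluster from a wider list of 31 imprinted genes, had 1.76, 2.94, 1.79 and 4.81 CPM in the controls. In the knockouts it had 7.84, 7.06, 12.5 and 7.28 CPM. The groups did not overlap, and its log2 fold change was 1.61 ± 0.37 (SE, edgeR adjusted p = 0.210). DESeq2's Wald test called it (adjusted p = 0.00702), as did limma-voom with quality weights (adjusted p = 0.0505), in a range of 0.00254 to 0.489 over its alternatives. Of all genes tested, DESeq2 called 1.42% and limma-voom 1.32%. Without knockout 3, its highest library, Tfpi2 was at 1.38 and did not pass (adjusted p = 0.105).

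Among the remaining long non-coding members, Kcnq1ot1, the paternal RNA that silences the Kcnq1 cluster, had 48.0, 25.5, 11.5 and 18.7 CPM in the controls and 16.7, 23.9, 3.76 and 18.1 CPM in the knockouts. It had the lowest fitted log2 fold change of the members, −0.72 ± 0.50 (SE, edgeR adjusted p = 0.889), with overlap of the groups. Peg13, a brain-enriched RNA inside Trappc9, ran from 1.19 to 3.5 CPM in the controls and from 1.27 to 3.45 CPM in the knockouts. Kcnq1ot1 lies within the span of Kcnq1 on the other strand, and Airn partly within that of Igf2r on the other strand. Peg13 lies within that of Trappc9 on the same strand. Whether unspliced RNA of these genes was counted for the non-coding members was not tested. The 6 expressed members of the Kcnq1 cluster all had fitted log2 fold changes below 0, from −0.72 to −0.03 with a median of −0.17, and none passed. The median of all genes tested was 0.01. All 6 stayed below 0 under the other scalings in edgeR and 5 did with limma-voom, while 4 did without control 1 or control 3 and within either library set, and 5 without knockout 1 or knockout 3. Of the wider list of imprinted genes, Kcnq1 and Trpm5 in the same region lay below 0 (−0.52 and −0.95). Tssc4, beside Cd81, lay above it (0.66), and edgeR called none of them.

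Peg3, a zinc finger protein, had 8.09, 9.44, 19.1 and 14.8 CPM in the controls and 5.41, 1.44, 11.5 and 14.4 CPM in the knockouts, with knockout 2 far below the rest. The Peg3 log2 fold change was −0.66 ± 0.54 (SE, edgeR adjusted p = 0.915). Nnat (neuronatin), found in neuroendocrine cells, ran from 1.42 to 3.05 CPM in the controls and from 0.970 to 2.94 CPM in the knockouts. The summed level of 11 enteroendocrine markers was 249 to 1001 CPM in the controls and 56.0 to 283 CPM in the knockouts, lowest in knockout 2. Of these markers 1 was called lower (Neurod1), where 0.0521% of all genes tested were, and 6 were lower at an unadjusted p under 0.05, where 2.53% of all genes tested were. Their part in the Peg3 and Nnat values was not tested.

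Gnas, which encodes the stimulatory G protein α subunit, had 8 to 21 counts per library. Gm20721, annotated on the other strand with 0 counts in every library, covers 13.1% of the exon bases of the gene and from 0% to 85.4% of each annotated Gnas transcript, with 80.4% to 85.4% in Gnas-206 to Gnas-208. Its part in the low Gnas count was not tested. Snrpn, a splicing factor gene, had 8 to 17 counts, and 34.1% of its exon bases belong to other genes too.

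Of the other expressed members, Grb10, an adaptor that restrains insulin and Igf receptor signalling, had log2 fold change 0.12 ± 0.61 (SE). Inpp5f, a phosphoinositide phosphatase, had 0.12 ± 0.37, and Impact, a translational regulator, 0.20 ± 0.49. Zrsr1, a splicing factor retrogene, had 0.25 ± 0.37, Blcap, a membrane protein gene that hosts Nnat, 0.42 ± 0.42, and Osbpl5, a lipid transfer protein, −0.29 ± 0.33. Trappc9, a vesicle tethering subunit, had 0.02 ± 0.37. In each of these the groups overlapped and the test was not passed.

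Apart from H19, the fitted log2 fold changes of the 25 expressed members ran from −0.72 to 1.58, and 84% of them were under 0.5 in size, as were 76.2% of all genes tested. The median over all 26 was 0.03 against 0.01 over all genes tested, and the median size 0.24 against 0.25. With TMM scaling 15 were above 0 and 11 below, upper-quartile scaling gave 12 and 14, and limma-voom 9 and 17. The smallest edgeR adjusted p after that of H19 was 0.589.

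**Figure D4:**
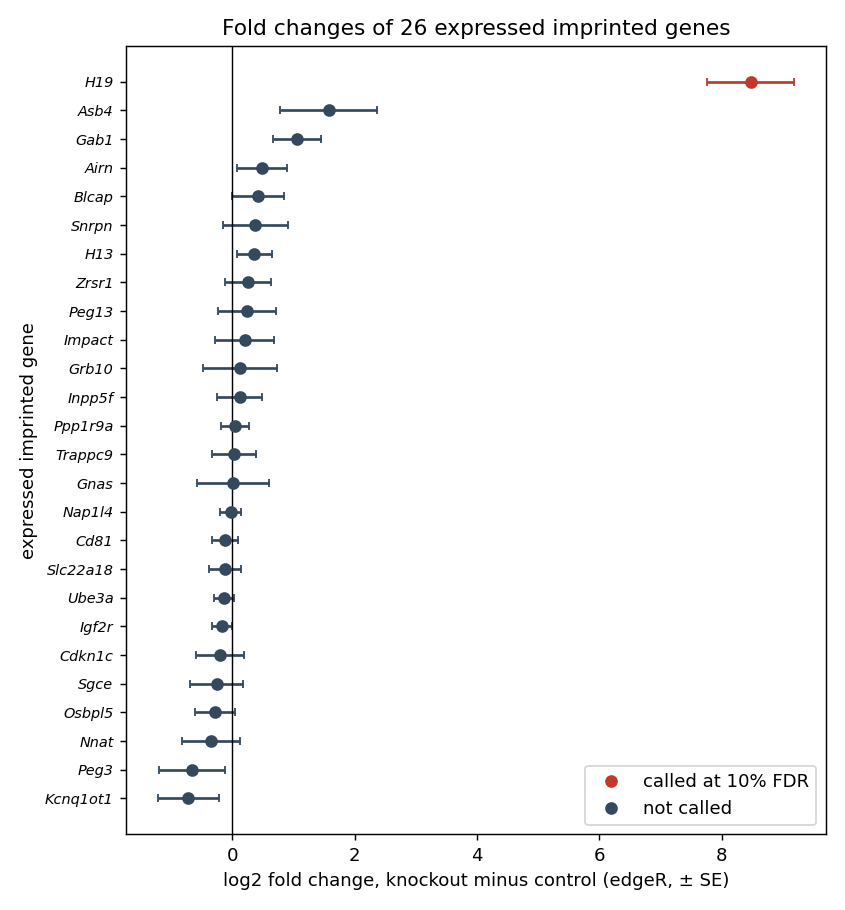
Log2 fold change (knockout minus control, edgeR) of each of the 26 expressed imprinted genes, with bars of ± 1 SE and H19, the one gene called at 10%, in red. The other 25 lie between −0.72 and 1.58, and the fitted H19 value depends on the prior count because its controls are near 0.

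Among the 20 low or silent members none was called when the test was run without the count filter, although 3 (Mest, Magel2 and Nap1l5) had an unadjusted p under 0.05, as did 8.33% of all genes in that fit. Mest, a hydrolase gene, had 1, 11, 2 and 3 counts in the controls and 0, 1, 1 and 0 in the knockouts. Nap1l5 had 24 counts in knockout 3 and none in knockouts 1, 2 and 4, while a control held 1 to 3. Magel2 had 4 counts in control 2 and 0 elsewhere. Phlda2, a growth-restraining gene of the Kcnq1 cluster, had 15, 8, 3 and 2 counts in the controls and 25, 36, 0 and 1 in the knockouts, higher in set A than in set B in both groups. Plagl1, a zinc finger regulator of imprinted genes, had 10, 1, 7 and 10 counts in the controls and 15, 6, 5 and 37 in the knockouts.

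Of 26 genes that maintain imprints or methylate DNA, 22 were tested and none was called or had an unadjusted p under 0.05 in edgeR (DESeq2 and limma-voom also called 0). Their log2 fold changes ran from −0.16 to 0.58, with a median of 0.12. Dnmt1, the maintenance methyltransferase, had 6.91 to 11.5 CPM in the controls and 4.58 to 14.1 CPM in the knockouts. Ctcf, the insulator protein that binds the H19 control region, had 16.5 to 21.7 CPM against 16.3 to 25.3 CPM. Zfp57, which binds methylated imprints, had at most 7 counts in a library, while Zfp445, which has a like role, had 17.1 to 24.1 CPM against 19.6 to 31.7 CPM.

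Of 17 genes of the Igf axis, 7 were tested and none was called by edgeR, with 1 at an unadjusted p under 0.05 (6.88% of all genes tested), while DESeq2 called 0 and limma-voom 1. That gene was Igfbp4, an Igf-binding protein, at 18.5, 13.01, 19.5 and 13.3 CPM in the controls and 28.0, 47.2, 15.2 and 29.1 CPM in the knockouts. Knockouts 1, 2 and 4 lay above every control and knockout 3 among them. Its log2 fold change was 0.90 ± 0.30 (SE, edgeR adjusted p = 0.502), and without knockout 2, its highest library, it was 0.59 (adjusted p = 0.823). Without knockout 3 it was 1.11 and called (adjusted p = 0.0369, in a range of 0.0197 to 0.873 over its alternatives). Igf1r, the receptor for Igf1 and Igf2, had 7.22 to 13.8 CPM in the controls and 10.5 to 11.9 CPM in the knockouts, with a log2 fold change of 0.01 ± 0.23. Igf1 was low, with at most 14 counts. Igfbp1, another Igf-binding protein, did not pass the count filter and had 2, 1, 0 and 0 counts in the controls and 123, 109, 0 and 35 in the knockouts. It was higher in knockouts 1, 2 and 4 than in any control and had no count in knockout 3. In edgeR it was called with no count filter (adjusted p = 8.07e-12), in a fit that called 1.03% of all genes, and, among the fits with a library left out that tested it, without knockout 3 (adjusted p = 0.000839) and not without a control (adjusted p from 0.312 to 0.409). Within set A, where genotype and sex-linked counts coincide, edgeR called it too (adjusted p = 0.00119), in a fit that called 1.8% of all genes.

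Of the 31 further imprinted genes, 19 were tested and none was called by edgeR (4 at an unadjusted p under 0.05, 2 in each direction, where 4.35% of all genes tested were higher and 2.53% lower at that limit), while DESeq2 called 1 and limma-voom 2. Beside Tfpi2 and Ascl2 these were Slc38a4 and Ddc. Slc38a4, an amino acid transporter, had 0.627, 1.19, 0 and 0.0789 CPM in the controls and 8.14, 9.82, 0 and 3.21 CPM in the knockouts. It was higher in knockouts 1, 2 and 4 than in any control and had no count in knockout 3. The fitted log2 fold change was 3.45 ± 1.11 (SE, edgeR adjusted p = 0.468). Without knockout 3 it was 3.83 and called (adjusted p = 0.0337, in a range of 0.0337 to 0.772). Ddc, an amine-synthesis enzyme of enteroendocrine cells, had 29.1, 29.8, 46.04 and 32.8 CPM in the controls and 13.7, 7.18, 32.0 and 17.1 CPM in the knockouts. Only knockout 3 reached the control range, and the log2 fold change was −0.99 ± 0.37 (SE, edgeR adjusted p = 0.581), with the enteroendocrine marker sums as given above. Without knockout 3 it was −1.45 and called (adjusted p = 0.0265, in a range of 0.00449 to 0.862).

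Promoters were compared as a feature that the choice of genes did not use. RefSeq promoters of 300 bases (250 before to 50 after the start, GRCm38.p6) were matched for 37 of the 46 genes, which leaves out H19, Cdkn1c and Nap1l4 among others, and the dinucleotide CG was counted, which reads the same on both strands. The observed-to-expected ratio of CG was over 0.6 in 48.6% of the 37 genes and in 35.5% of the 27025 genes of the table, as a mean over each gene's promoters. It was over 0.6 in 10 of 19 expressed, 4 of 12 low and 4 of 6 silent genes. The promoters of Igf2r (expressed in every library), Dio3 (at most 1 count) and Asb4 (first of 2 starts) are shown as examples of an expressed gene, a silent gene and the gene called without knockout 3, with each CG in capitals.
Igf2r, chr17:12769657-12769956, minus strand: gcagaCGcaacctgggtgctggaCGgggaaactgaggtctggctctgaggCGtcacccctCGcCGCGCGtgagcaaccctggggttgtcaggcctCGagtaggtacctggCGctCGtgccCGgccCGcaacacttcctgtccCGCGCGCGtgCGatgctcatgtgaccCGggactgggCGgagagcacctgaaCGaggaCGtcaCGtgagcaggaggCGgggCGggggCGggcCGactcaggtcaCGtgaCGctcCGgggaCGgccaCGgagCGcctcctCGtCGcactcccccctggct
Dio3, chr12:110278980-110279279, plus strand: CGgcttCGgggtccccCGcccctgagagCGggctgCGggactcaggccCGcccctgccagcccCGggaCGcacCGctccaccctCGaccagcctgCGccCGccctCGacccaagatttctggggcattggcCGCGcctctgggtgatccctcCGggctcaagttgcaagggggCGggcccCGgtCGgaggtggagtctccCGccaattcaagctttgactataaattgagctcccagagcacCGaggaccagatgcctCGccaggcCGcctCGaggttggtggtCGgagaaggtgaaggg
Asb4, chr6:5383136-5383435, plus strand: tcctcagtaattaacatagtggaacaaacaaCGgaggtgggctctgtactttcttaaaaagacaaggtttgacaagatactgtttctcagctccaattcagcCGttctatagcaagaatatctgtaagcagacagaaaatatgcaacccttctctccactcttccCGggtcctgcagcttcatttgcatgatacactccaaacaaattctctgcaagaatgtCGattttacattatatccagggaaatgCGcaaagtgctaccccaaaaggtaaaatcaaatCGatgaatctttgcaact
The window holds 34 CG in Igf2r, 25 in Dio3 and 6 in Asb4, so that a silent and an expressed gene were both rich in CG. Methylation was not measured in these samples.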

How the data were processed

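The authors aligned the reads to mm10 with GSNAP and tallied uniquely placed reads on each Ensembl gene with featureCounts 1.6.3; the deposited values are raw counts. The strand setting is not given in the sources used here. The cDNA was PCR-amplified without molecular identifiers, and the floors cover counting error only. Each SD and SE reflects the spread between libraries. Gene symbols were matched by identifier for 53620 of 53801 genes. The 92 spike-in rows were left out.

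In R 4.3.3, edgeR 4.0.16 (TMM, filterByExpr with a minimum count of 10 and total of 15, robust quasi-likelihood) tested 13439 genes, with Benjamini-Hochberg adjustment over all. The common biological coefficient of variation was 0.376. The SE is the size of the log2 fold change over the square root of F. Alternatives were DESeq2 1.42.0, limma 3.58.1, other scalings, filters and thresholds, the library set as a block and each library left out. The functions were tested on simulated data.

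The members and lists were chosen with earlier results of these data known. Values per library are given for H19, members called at 10% or with an unadjusted p under 0.05 or with separated groups, and the 8 highest per kilobase; of the lists of imprint maintenance, Igf axis and further imprinted genes, for genes at an unadjusted p under 0.05. Genes within 150 kb of H19 are given by range or count and marker lists by their sums. Values per library of Asb4, Igfbp1, Peg3, Kcnq1ot1, Meg3, Mest, Nap1l5, Phlda2 and Plagl1 and ranges of further genes were added after their values were seen. Sample titles carry a number whose meaning is not stated, and control 4 and knockout 4 share theirs. P-values measure the spread between these samples.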

Additional observations from a re-analysis of the deposited data

Results flagged for a closer look

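In groups of 4 libraries, 6 of the 52 groups formed by the 26 expressed genes and both genotypes had a library far from the others by Dixon's test at 95%, where chance gives about 2.6. Knockout 3 was the library that stood apart in 3 of them. H13 was at 92.4 CPM there against 34.3 to 41.0 CPM in the other knockouts (a gap of 0.885 of the group's range), Gab1 at 12.5 CPM against 4.73 to 5.70 CPM (0.874) and Snrpn at 2.00 CPM against 0.632 to 0.832 CPM (0.854). Ube3a in knockout 2 was at 49.2 CPM against 39.2 to 40.3 CPM (0.889), and Impact in control 1 was at 5.77 CPM against 1.66 to 2.15 CPM (0.879). The H19 gap of 1 in the controls is the single count in control 2, against 0 in the other controls.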

How the results depend on the processing

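H19 was called under each other setting that tested it on all 8 libraries or with 1 library left out, with an adjusted p of at most 0.00984. Requiring at least 10 counts in every library removed it, which left 0 imprinted genes called. Leaving out each library in turn gave 1 to 2 imprinted genes called, and the second was Asb4, called without knockout 3, where 1.58% of all genes were called. Within set A, fitted alone after the data were seen, 2 were called (Asb4 and H19; 1.8% of all genes), and within set B 0 (0.0527% of all genes), where H19 had a fitted log2 fold change of 9.96 and missed the threshold, and Asb4 turned to −0.48. Counts of Igf axis genes called were 0 in the report's setting, 2 with no filter (Igfbp1 and Igfbp4), 1 with limma-voom and 0 to 2 with a library left out. For the further imprinted genes they were 0, 2 with no filter, 1 with DESeq2's Wald test, 2 with limma-voom and 0 to 2 with a library left out. The cause of these differences was not tested. Genes near H19 and imprint maintenance genes stayed at 0 called under every setting run for them, which left out the fits within a set. With silence defined as 0 counts in every library, 0 members were silent, and with at most 10 counts, 12. No paired analysis was possible because the groups share fewer than 2 of the numbers in the sample titles. Depth limits the low genes: a count of 3 is 0.172 to 0.352 CPM.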
